A study of Zea mays with 6 samples.

Results

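Brassinosteroid synthesis and signalling genes were followed in maize root tips, in plants under negative pressure irrigation (NPI) and in plants under DI. The genes were taken from the deposited table by the KEGG term for brassinosteroid biosynthesis, or by a name or description that mentions brassinosteroids, nana plant, BRI1, BAK1, BIN2, BZR or BES1. The rule found 37 of 45953 genes, 10 by the KEGG term and 31 by their text, 4 of these by both. The gene of hemoglobin2 was found only because its name ends in the letters of BIN2. It is no brassinosteroid gene and is kept apart below, which leaves 36 genes, 12 of synthesis and inactivation and 24 of signalling.

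Each group had 3 libraries of messenger RNA from root tips, which differ in the labels only by irrigation. Negative pressure irrigation is known as a method that supplies water at a pressure below that of the air, so that the soil draws it as it dries. The title of the series asks how it affects root growth and water use. The labels give DI once as deficit and once as drip irrigation, so it is not clear which was applied. No cultivar, plant age or sampling time is given in the sources used here. It is also not stated whether the libraries came from separate plants, so p-values cover only how these libraries varied, and that variation may be technical. The description of DI-2 gives another repeat number than its title, which is used here. Total estimated counts were between 57792439 and 71957443 per library.

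Brassinosteroids are steroid hormones of plants that promote cell elongation and division, and in roots they act at the tip, where cells leave the meristem. They are made from plant sterols by a reductase and a chain of cytochrome P450 enzymes, and are removed by P450 enzymes of the CYP734A type. At the cell surface the hormone is bound by the receptor kinase BRI1 or its relatives, which act with the co-receptor BAK1. In Arabidopsis the active receptor leads to loss of the kinase BIN2, a GSK3-like enzyme that otherwise phosphorylates the transcription factors BZR1 and BES1 and keeps them from acting. Synthesis genes are repressed by the hormone's own signalling in that species, and inactivating genes are induced by it.

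The library NPI-2 stood apart. Across the 21902 tested genes, which are those with a mean of at least 1 FPKM over the 6 libraries, log2(FPKM + 1) of NPI-2 had Pearson correlations of 0.854 to 0.882 with the DI libraries but 0.838 and 0.814 with NPI-1 and NPI-3. Genes are not independent replicates, so these are given as a description. Members whose direction or call depends on NPI-2 are given with and without it. FPKM stands for fragments counted per length of transcript and per total of fragments in the library, which allows genes of different length to be set side by side. In whole root tips, fewer cells of a type and less RNA per cell cannot be told apart. The table held 4 genes named for the root cap, whose FPKM summed to 28, 140.7 and 39.7 in NPI-1 to NPI-3 and to 231, 156.5 and 110.5 in DI-1 to DI-3. The 7 genes named as cyclin B, a marker of dividing cells of the meristem, summed to 77.9, 83.9 and 45.1 FPKM in NPI and 59.5, 85.6 and 83.4 FPKM in DI, with overlap. The 17 green leaf genes summed to 77.8, 81 and 55.2 FPKM in NPI and 45.7, 86.9 and 35.1 FPKM in DI, with overlap. Genes named for root hairs, 12 in all, summed to 130.5, 71.8 and 105.6 FPKM in NPI. In DI they summed to 108.7, 114.6 and 133 FPKM, with overlap. Most of these are described as ROOT HAIR DEFECTIVE proteins, a name that tells of a defect and not of where a gene is active. Their sum is thus no measure of root hair cells.

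None of the 36 genes passed the edgeR quasi-likelihood test of NPI against DI at an adjusted p of 0.05, a threshold that 0.0137% of all tested genes passed, 0.00913% as higher and 0.00457% as lower. In all, 30 of the 36 were tested, comprising the 12 synthesis and inactivation genes and 18 of signalling. The tested synthesis and inactivation genes had positive log2 differences (NPI minus DI) in 11 of 12, with a median of 1.31. Those of signalling were positive in 14 of 18, with a median of 0.57. Over all tested genes 54% were positive and the median was 0.074. Every NPI library lay above every DI library in 12 of the 30 tested genes, where 13% of all tested genes did so, and in 0 of the 30 every NPI library lay below every DI library, where 13.7% did. At an unadjusted p under 0.05, 11 members were higher and 1 was lower in edgeR, beside 12.3% and 8.52% of all tested genes. DESeq2 called 7 members higher and 0 lower, where it called 6.84% and 4.53% of all tested genes, and limma on log2(FPKM + 1) called 0, where it called 0.63% of all tested genes, 0.452% as higher and 0.178% as lower. Without NPI-2, edgeR called 7 higher and 2 lower, beside 6.65% and 5.19% of all tested genes. Among the tested members, Zm00001d005823 and Zm00001d022351 had a DI mean under 1 FPKM and reached the filter only through their NPI values, and Zm00001d007363 had an NPI mean under 1 FPKM and reached it only through its DI values, so a difference in these 3 was built into the filter.

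**Figure D1:**
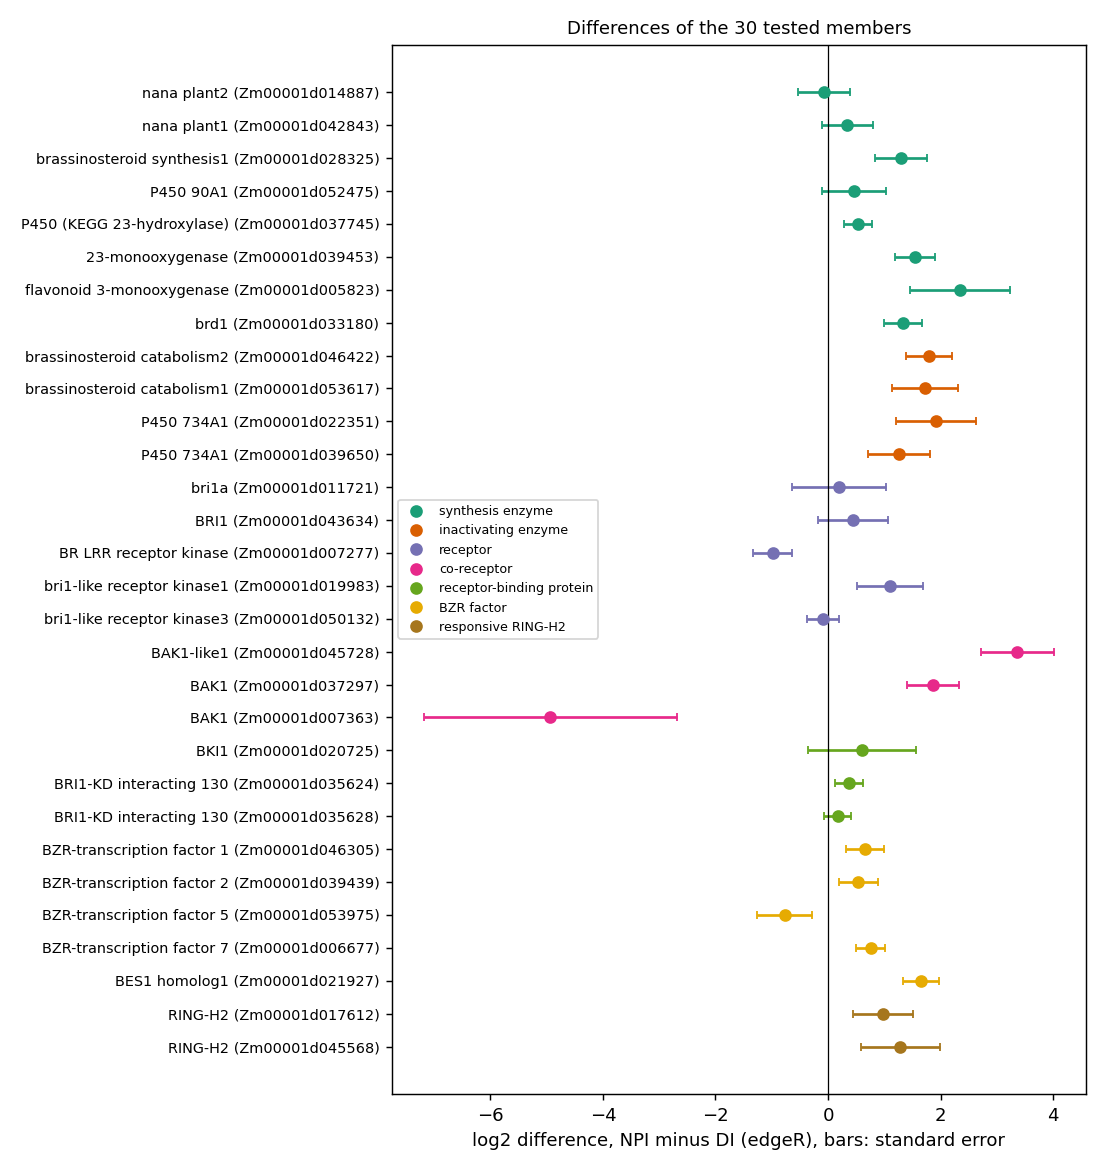
Log2 differences (NPI minus DI, edgeR) of the 30 tested brassinosteroid genes, with bars for the standard error and colours for the role of each gene. Most points lie to the right of 0, from -4.93 for a BAK1-described gene to 3.36 for the BAK1-like1 gene, and none passed at an adjusted p of 0.05.

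Of the 8 synthesis genes, 4 had overlapping groups, namely both nana plant genes, the P450 90A1 gene and Zm00001d005823. In the other 4 every NPI library lay above every DI library, where 13% of all tested genes did so. The nana plant2 gene (Zm00001d014887, chromosome 5, 67026171 to 67030023) encodes the sterol reductase that supplies the precursor, and dwarf maize results from its loss. It had 20.7, 77.2 and 25.6 FPKM in NPI-1 to NPI-3 and 50.3, 44.3 and 35.5 FPKM in DI-1 to DI-3. NPI-2 was thus the highest of all libraries, while NPI-1 and NPI-3 lay below every DI library. The log2 difference was -0.07 (SE 0.46, edgeR adjusted p = 0.945), and it was -0.75 without NPI-2 (edgeR adjusted p = 0.101).

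Nana plant1 (Zm00001d042843, chromosome 3, 181821465 to 181822989), the steroid reductase known as DET2 in Arabidopsis, had 3.54, 9.72 and 3.14 FPKM in NPI and 3.52, 5.19 and 4.35 FPKM in DI. Its NPI-2 value was again the highest, and the groups overlapped (log2 difference 0.34, SE 0.45, edgeR adjusted p = 0.704, and -0.23 without NPI-2). The gene described as cytochrome P450 90A1 (Zm00001d052475, chromosome 4, 190839085 to 190842202), which corresponds to CPD of Arabidopsis, had 21.6, 50.8 and 7.18 FPKM in NPI and 18.5, 24.7 and 14.1 FPKM in DI. The values spanned a wide range within NPI, from the lowest to the highest of the 6 libraries. The log2 difference was 0.46 (SE 0.57, edgeR adjusted p = 0.678), and -0.29 without NPI-2.

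Brassinosteroid synthesis1 (Zm00001d028325, chromosome 1, 30793737 to 30799897) is assigned to the hydroxylase known as DWF4, which limits the rate of synthesis in Arabidopsis. It had 5.45, 2.09 and 3.14 FPKM in NPI and 1.33, 1.47 and 1.81 FPKM in DI. All NPI libraries lay above all DI libraries, with NPI-2 closest to them. The log2 difference was 1.29 (SE 0.46, edgeR adjusted p = 0.187), and 1.61 without NPI-2 (edgeR adjusted p = 0.0412).

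A gene described as 3-epi-6-deoxocathasterone 23-monooxygenase (Zm00001d039453, chromosome 3, 4745784 to 4752166), the step carried out by CYP90C and CYP90D enzymes, had 3.36, 5.8 and 5.2 FPKM in NPI and 1.92, 1.61 and 1.59 FPKM in DI. The DI values were close together and all lay under those of NPI. Its log2 difference was 1.54 (SE 0.35, edgeR adjusted p = 0.0994), the smallest p among the synthesis and inactivation genes. DESeq2 called it higher (adjusted p = 0.00122), as did edgeR without NPI-2 (adjusted p = 0.0486). A P450 gene assigned to the same enzyme (Zm00001d037745, chromosome 6, 136194441 to 136198848) was more abundant, at 52.7, 45.8 and 45.6 FPKM in NPI and 30, 32.1 and 42.4 FPKM in DI. These groups did not overlap either, but the gap was small beside the spread within DI (log2 difference 0.53, SE 0.25, edgeR adjusted p = 0.283).

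Brassinosteroid-deficient dwarf1 (Zm00001d033180, chromosome 1, 253162491 to 253166753) encodes the C-6 oxidase that completes the active hormone, and its loss gives severe dwarfs in maize. It had 26.9, 42.8 and 14.8 FPKM in NPI and 12.9, 10.7 and 10.2 FPKM in DI. All NPI libraries were higher, from just above the DI range in NPI-3 to far above it in NPI-2. The log2 difference was 1.33 (SE 0.34, edgeR adjusted p = 0.116), DESeq2 called the gene higher (adjusted p = 0.0107), and edgeR without NPI-2 gave 1.01 (adjusted p = 0.0659). The last gene of the KEGG term, Zm00001d005823 on chromosome 2, is described as a flavonoid 3-monooxygenase, so its place in this pathway is uncertain. It had 1.19, 0.72 and 5.88 FPKM in NPI and 0.51, 0.78 and 0.43 FPKM in DI, with NPI-2 inside the DI range (log2 difference 2.34, SE 0.89, edgeR adjusted p = 0.207). Its log2 difference was 0.75 without NPI-3.

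**Figure D2:**
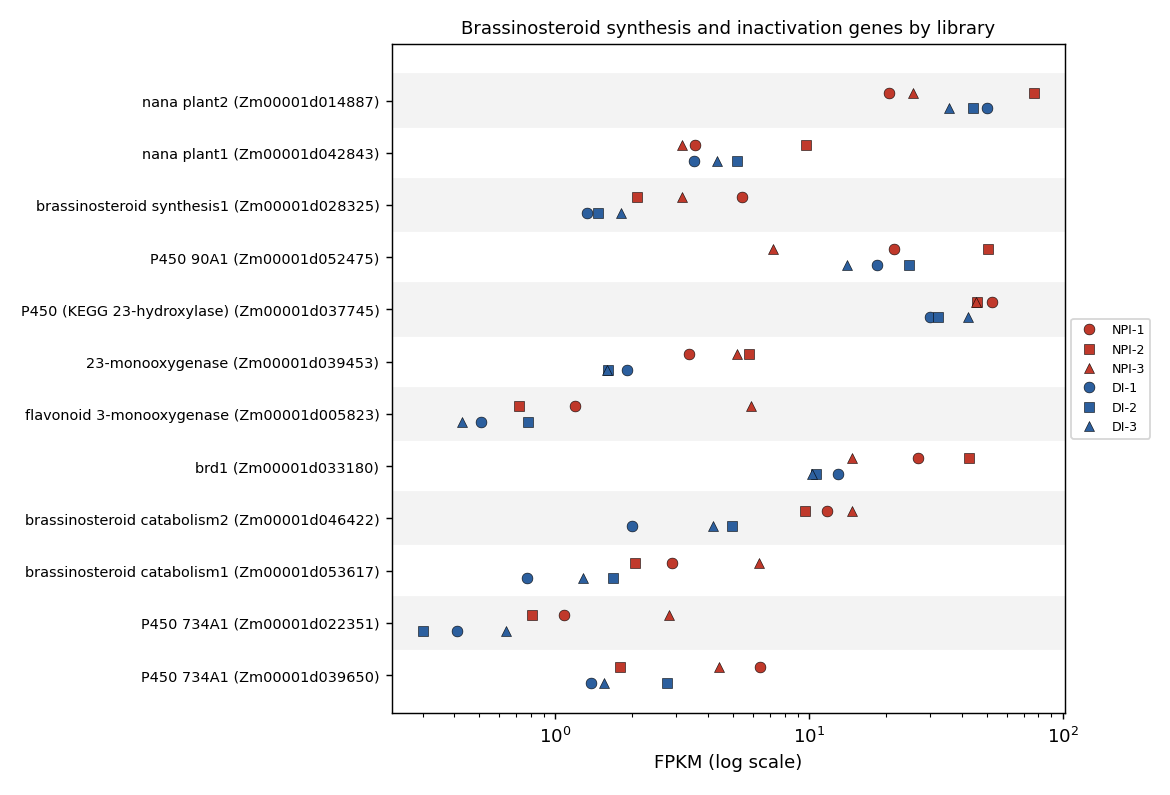
FPKM on a log axis of the 8 synthesis genes (upper rows) and the 4 inactivating genes (lower rows) in each library, NPI in red and DI in blue, with a marker shape for each replicate number. NPI-2 (red square) is the highest library for 5 of the 8 synthesis genes, beside 27.2% of all tested genes. These are nana plant2, nana plant1, P450 90A1, brassinosteroid-deficient dwarf1 and Zm00001d039453. For the 4 inactivating genes NPI-2 is the lowest of the NPI libraries.

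Genes of the inactivating enzymes had higher values in NPI as well. The 4 members described as the CYP734A type of cytochrome P450, whose Arabidopsis counterpart BAS1 hydroxylates active brassinosteroids and so ends their action, had log2 differences of 1.26 to 1.79 in the 3 whose means reached 1 FPKM in both groups. The fourth, Zm00001d022351, passed the filter only through NPI and so had to differ. Brassinosteroid catabolism2 (Zm00001d046422, chromosome 9, 88938385 to 88941121) had 11.7, 9.65 and 14.8 FPKM in NPI and 2.01, 4.98 and 4.18 FPKM in DI. The lowest NPI library lay well above the highest DI library. Its log2 difference was 1.79 (SE 0.41, edgeR adjusted p = 0.102), with DESeq2 adjusted p = 0.00257 and edgeR adjusted p = 0.0391 without NPI-2.

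Brassinosteroid catabolism1 (Zm00001d053617, chromosome 4, 236577171 to 236580231) had 2.88, 2.06 and 6.35 FPKM in NPI and 0.77, 1.69 and 1.28 FPKM in DI. Its groups did not overlap, and NPI-3 was more than the others (log2 difference 1.72, SE 0.58, edgeR adjusted p = 0.172, DESeq2 adjusted p = 0.0454). Without NPI-3 the log2 difference was 1.00. Zm00001d022351 (chromosome 7, 176000545 to 176003398) was lowly expressed, at 1.08, 0.81 and 2.8 FPKM in NPI and 0.41, 0.3 and 0.64 FPKM in DI, also without overlap (log2 difference 1.92, SE 0.71, edgeR adjusted p = 0.2, and 1.07 without NPI-3). Zm00001d039650 (chromosome 3, 10539593 to 10543488) had 6.39, 1.8 and 4.43 FPKM in NPI and 1.38, 2.75 and 1.55 FPKM in DI. Here NPI-2 fell inside the DI range, and the log2 difference of 1.26 (SE 0.56, edgeR adjusted p = 0.25) became 1.66 without that library (edgeR adjusted p = 0.0447). Close copies of P450 genes may share counts, so the split among these 4 genes is uncertain.

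Summed over the 4 inactivating genes, FPKM was 22.1, 14.3 and 28.4 in NPI and 4.57, 9.72 and 7.65 in DI. The 8 synthesis genes together had 135.4, 234.9 and 110.5 FPKM in NPI and 119.05, 120.75 and 110.4 FPKM in DI, so their sum exceeded the DI range in NPI-1 and NPI-2 and not in NPI-3. The inactivating genes made up 14%, 5.75% and 20.4% of the summed FPKM of both kinds in NPI-1 to NPI-3. In DI-1 to DI-3 the share was 3.7%, 7.45% and 6.48%. The share averaged 13.4% ± 7.36 in NPI and 5.88% ± 1.95 in DI, with the SD over 3 libraries. An exact permutation test, two-sided, gave p = 0.3, where 0.1 is the smallest possible, and NPI-2 lay inside the DI range. Genes with IRX (irregular xylem) in their description were taken as markers of xylem. They also had their highest sums in NPI-1 and NPI-3. Those described as the cellulose synthase CESA4 had at most 0.54 FPKM in any library. The sums thus came from the others, most of them described as xylosyltransferases. The list held 54 genes, 27 of them tested and 22 without a count in any library, and summed to 728, 347 and 882 FPKM in NPI and 367, 392.1 and 463 FPKM in DI. Their part in the brassinosteroid values was not tested.

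**Figure D3:**
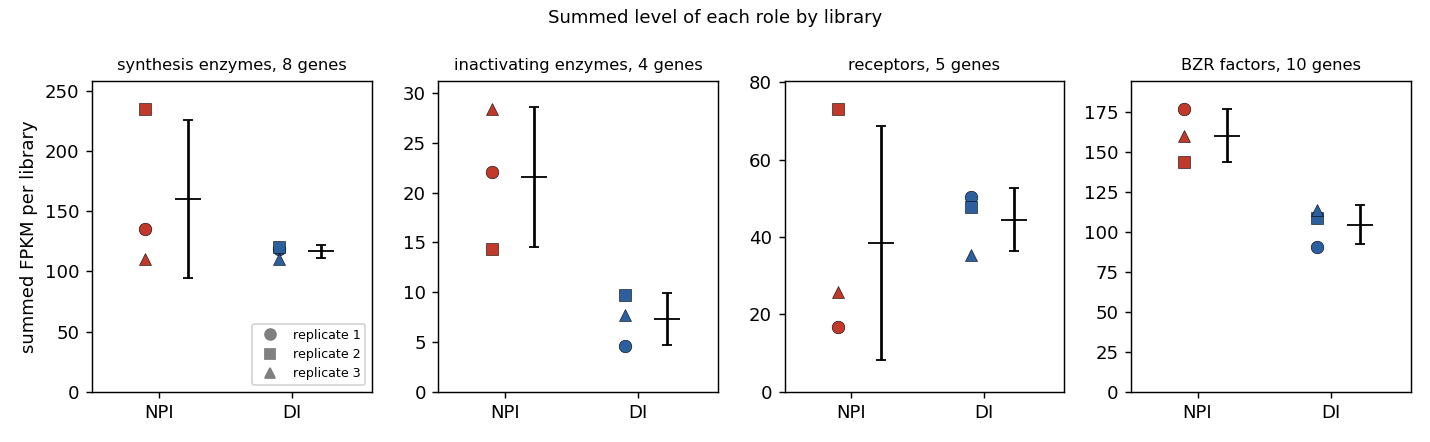
Summed FPKM per library of the synthesis enzymes, inactivating enzymes, receptors and BZR factors, with points for the libraries (marker shape gives the replicate number) and a cross line and whiskers for the mean with its SD over 3 libraries. The groups do not overlap for inactivating enzymes (14.3 to 28.4 in NPI, 4.57 to 9.72 in DI) or BZR factors, and overlap for synthesis enzymes and receptors, where NPI-2 is the highest library.

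The receptors did not share a direction. The gene brassinosteroid insensitive1a (Zm00001d011721, chromosome 8, 159899428 to 159902796), the maize counterpart of the receptor BRI1, had 2.03, 27.5 and 3.45 FPKM in NPI and 8.51, 11.1 and 8.47 FPKM in DI. NPI-1 and NPI-3 lay far under every DI library, and NPI-2 far above them. With all libraries the log2 difference was 0.19 (SE 0.83, edgeR adjusted p = 0.92). Without NPI-2 the gene was lower in NPI, with a log2 difference of -1.60 (SE 0.34, edgeR adjusted p = 0.0412). A second BRI1-described gene (Zm00001d043634, chromosome 3, 205754068 to 205757412) had 3.23, 21.5 and 5.2 FPKM in NPI and 7.69, 8.77 and 5.29 FPKM in DI. Its libraries had the same order of NPI-2 above DI above NPI-1 and NPI-3, with NPI-3 just under the lowest DI library. Its log2 difference was 0.45 (SE 0.62, edgeR adjusted p = 0.713), and -0.61 without NPI-2 (edgeR adjusted p = 0.259). Nana plant2, both these receptor genes and 9.52% of all tested genes had NPI-2 above and both other NPI libraries below the DI range, so the pattern is common in these libraries.

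The root cap genes varied among NPI libraries in the same order. Of the 4, 3 were tested, and their sums are given above. Root cap protein1 (Zm00001d036091) had 27.5, 114.6 and 38.7 FPKM in NPI and 108.9, 96.7 and 78.3 FPKM in DI. A root cap-specific gene, Zm00001d045420, had 0.48, 24.9 and 0.97 FPKM in NPI, beside 106.2, 59.5 and 31.9 FPKM in DI. Both were thus low in NPI-1 and NPI-3, as the BRI1 genes were. Root cap periphery gene2 (Zm00001d052527) was at 0 in all NPI libraries and at 4.09, 0.24 and 0.03 FPKM in DI, and Zm00001d004725 was at 0 in NPI-1 and NPI-3. The part of root cap RNA in the receptor values was not tested.

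The remaining receptors differed from these. Zm00001d007277, described as a brassinosteroid LRR receptor kinase (chromosome 2, 226571959 to 226574550), was the most abundant receptor gene by mean FPKM and had 7.32, 17.5 and 9.58 FPKM in NPI and 29.5, 22.9 and 17.2 FPKM in DI. The groups touched only at NPI-2 and DI-3, and the log2 difference was -0.98 (SE 0.35, edgeR adjusted p = 0.187). It was the 1 member lower at an unadjusted p under 0.05. The bri1-like receptor kinase1 (Zm00001d019983, chromosome 7), whose Arabidopsis namesake acts in vascular tissue, had 1.01, 4.03 and 5.01 FPKM in NPI and 1.83, 1.86 and 1.28 FPKM in DI, with NPI-1 the lowest of the 6 libraries (log2 difference 1.1, SE 0.58, edgeR adjusted p = 0.323). The bri1-like receptor kinase3 (Zm00001d050132, chromosome 4) had 3.15, 2.46 and 2.49 FPKM in NPI and 2.8, 3.24 and 3.03 FPKM in DI. It varied least of the 5 receptors (log2 difference -0.09, SE 0.28, edgeR adjusted p = 0.881, and 0.0419 without NPI-2).

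**Figure D4:**
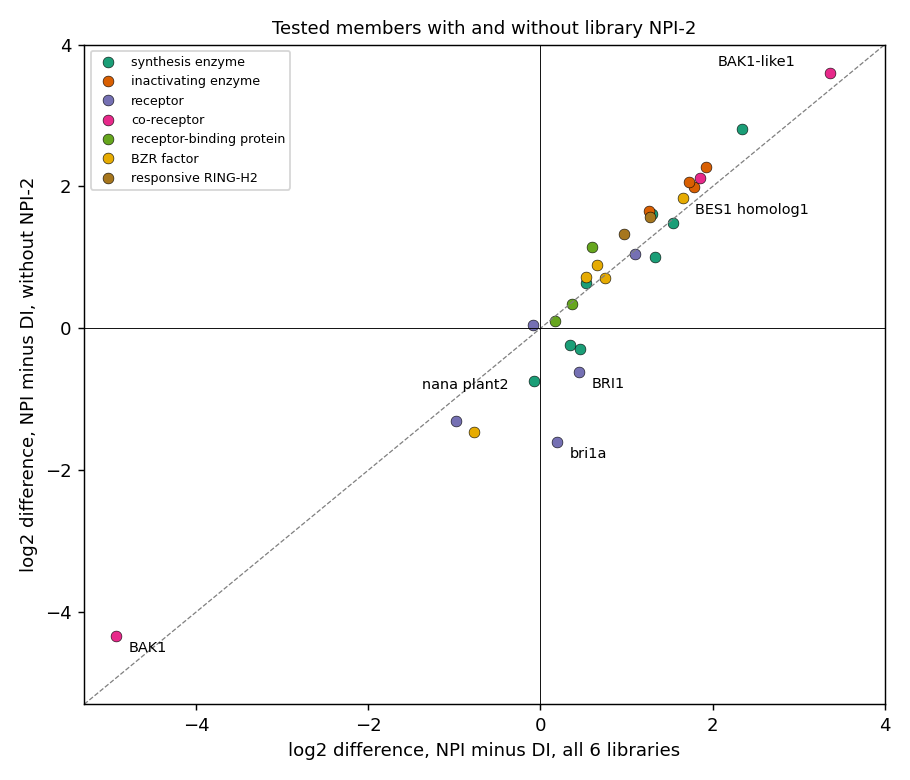
Log2 differences (NPI minus DI, edgeR) of the 30 tested members with all 6 libraries on the x axis and without NPI-2 on the y axis, and a dashed line where both are equal. Many members lie near the line. Among those that fall below it are bri1a, BRI1, nana plant2, P450 90A1, nana plant1 and BZR-transcription factor 5, with bri1a going from 0.19 to -1.60.

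Of the 3 co-receptor genes found by the rule, 2 had every NPI library above every DI library, where 13% of all tested genes did. The 4 SERK co-receptor genes, listed separately below, had 1 positive and 3 negative log2 differences. The gene brassinosteroid insensitive1-associated receptor kinase like1 (Zm00001d045728, chromosome 9, 35557580 to 35561282) had 17.9, 7.91 and 7.26 FPKM in NPI and 0.36, 1.39 and 1.6 FPKM in DI. The lowest NPI library was several times the highest DI library. Its description differs from its name, giving it as NSP-interacting kinase 1, a related receptor kinase known from antiviral defence. The log2 difference was 3.36 (SE 0.65, edgeR adjusted p = 0.079), and DESeq2 and edgeR without NPI-2 both called it higher (adjusted p = 6.44e-06 and 0.0341). A BAK1-described gene (Zm00001d037297, chromosome 6, 119869360 to 119872972) had 6.61, 2.83 and 3.08 FPKM in NPI and 0.83, 1.4 and 1.39 FPKM in DI. These groups were also apart, and the log2 difference was 1.86 (SE 0.46, edgeR adjusted p = 0.114, DESeq2 adjusted p = 0.00467, edgeR adjusted p = 0.0364 without NPI-2).

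A second BAK1-described gene went with 1 DI library. Zm00001d007363 (chromosome 2, 229723559 to 229730271) had 0, 0 and 1.13 FPKM in NPI and 35.8, 0.58 and 3.25 FPKM in DI. DI-1 held most of its counts, 2520 of them beside 45 and 287 in DI-2 and DI-3, and NPI-3 lay between DI-2 and DI-3. The fitted log2 difference of -4.93 (SE 2.25, edgeR adjusted p = 0.263) became -2.15 without DI-1 and -13.03 without NPI-3, where both NPI libraries left are at 0 and the fitted value depends on the prior count. The root cap-specific gene Zm00001d004725 also had its highest value in DI-1, at 11.98 FPKM beside 0.14 and 0.19 in DI-2 and DI-3.

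Proteins that bind the receptor differed little or unevenly. The BRI1 kinase inhibitor 1 gene Zm00001d020725, whose Arabidopsis counterpart holds the receptor inactive until the hormone binds, had 2.1, 0.22 and 4.18 FPKM in NPI and 1.18, 1.27 and 2.3 FPKM in DI. NPI-2 was the lowest library and NPI-3 the highest (log2 difference 0.60, SE 0.96, edgeR adjusted p = 0.753). The second inhibitor gene, Zm00001d031798, had at most 13 counts in a library and was not tested. The neighbouring genes of BRI1-KD interacting protein 130, Zm00001d035624 (chromosome 6, 37478852 to 37482504) and Zm00001d035628 (chromosome 6, 37505306 to 37508965), are similar by name and may share counts. The first had 24, 24.1 and 14.7 FPKM in NPI and 15.7, 19.2 and 15.3 FPKM in DI, and the second had 43.3, 49.7 and 30.3 FPKM in NPI and 35.1, 37.3 and 40.6 FPKM in DI. Both had their lowest value in NPI-3, and their log2 differences of 0.37 and 0.17 (SE 0.24 for each) had edgeR adjusted p = 0.415 and 0.715.

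The transcription factors at the end of the pathway had mostly higher values in NPI. Of 10 BZR-type genes, 5 were tested, 4 were at 0 counts in all libraries (BZR-transcription factors 3, 6, 8 and 9), and BZR-transcription factor 4 had a mean of 0.727 FPKM. The gene brassinosteroid insensitive EMS-suppressor homolog1 (Zm00001d021927, chromosome 7, 165996679 to 165998338), of the BES1 and BZR1 family, had 30.9, 18.4 and 19.2 FPKM in NPI and 6.11, 8.62 and 8.22 FPKM in DI. Every NPI library held more than the highest DI library by a wide margin. Its log2 difference of 1.65 (SE 0.31, edgeR adjusted p = 0.0773) had the smallest p of all 30 tested members. DESeq2 called it higher (adjusted p = 0.000264), and so did edgeR without NPI-2 (adjusted p = 0.0271).

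The 3 most abundant BZR genes differed less. BZR-transcription factor 2 (Zm00001d039439, chromosome 3, 4457841 to 4460509) had 82.8, 49.7 and 51.1 FPKM in NPI and 31.4, 43.7 and 57.9 FPKM in DI, with overlapping groups (log2 difference 0.53, SE 0.34, edgeR adjusted p = 0.41). BZR-transcription factor 7 (Zm00001d006677, chromosome 2, 214086849 to 214088343) had 28.1, 44.4 and 39.4 FPKM in NPI and 22.7, 27.7 and 19.1 FPKM in DI. NPI-1 was only just above DI-2 (log2 difference 0.75, SE 0.26, edgeR adjusted p = 0.179). BZR-transcription factor 1 (Zm00001d046305, chromosome 9, 79548451 to 79551855) had 32.3, 25.7 and 48 FPKM in NPI and 25.3, 22 and 24.8 FPKM in DI, with NPI-2 just above the DI range (log2 difference 0.65, SE 0.34, edgeR adjusted p = 0.31). Summed over the family, FPKM was 177, 144.04 and 160.4 in NPI and 90.9, 109.1 and 113.9 in DI.

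BZR-transcription factor 5 (Zm00001d053975, chromosome 4, 244506167 to 244518266) lay the other way. It is described as beta-amylase 8, and in Arabidopsis such proteins join an amylase-like part to a BZR-type domain and act as transcription factors. It had 1.71, 5.43 and 1.52 FPKM in NPI and 5.1, 6.19 and 3.5 FPKM in DI. NPI-1 and NPI-3 were under every DI library and NPI-2 was within their range. Its log2 difference was -0.77 (SE 0.49, edgeR adjusted p = 0.407), and without NPI-2 the gene was lower at -1.46 (edgeR adjusted p = 0.0442).

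Of the genes described as responsive to brassinosteroids, both RING-H2 genes had their highest value in NPI-3. Zm00001d017612 had 11, 6.11 and 19 FPKM in NPI and 5.78, 5.61 and 8.49 FPKM in DI, and Zm00001d045568 had 1.68, 1.68 and 4.42 FPKM in NPI and 0.76, 1.79 and 0.94 FPKM in DI. The groups overlapped in both, through NPI-2 in the first and through NPI-1 and NPI-2 in the second. A log2 difference of 0.97 was found for the first (edgeR adjusted p = 0.339) and 1.28 for the second (edgeR adjusted p = 0.338).

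**Figure D5:**
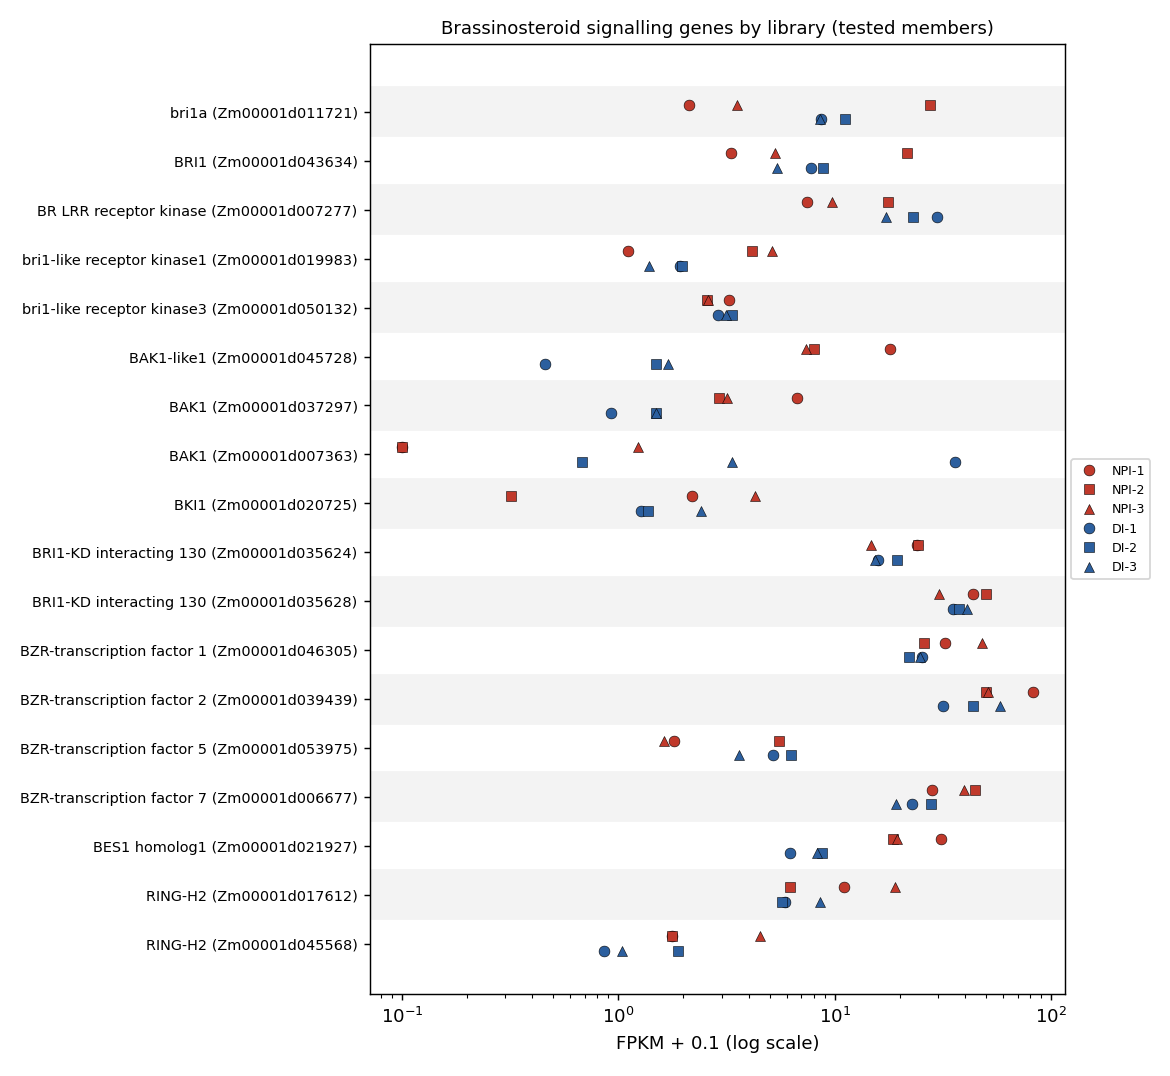
FPKM + 0.1 on a log axis of the 18 tested signalling genes in each library, NPI in red and DI in blue, with a marker shape for each replicate number. The groups lie apart for BAK1-like1, BAK1 (Zm00001d037297) and the BES1 homolog1, whereas bri1a and BRI1 have NPI-2 to the right and NPI-1 and NPI-3 to the left of DI.

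The kinase between receptor and transcription factors was not among the genes found by name, because the table describes such genes as shaggy-related or GSK3-like. Among 15 tested genes of this family, 7 had positive and 8 negative log2 differences, with a median of -0.17. None passed in edgeR, while DESeq2 called 0 higher and 3 lower, beside 6.84% and 4.53% of all tested genes. The edgeR test without NPI-2 called 1 lower, beside 5.19% of all tested genes. It was Zm00001d040263, described as glycogen synthase kinase-3 MsK-3 (edgeR adjusted p = 0.0413 without NPI-2). Of the 15, 5 had every NPI library below every DI library and 1 had the reverse, where 13.7% and 13% of all tested genes did. The 4 genes assigned to the KEGG ortholog group of BIN2, all described as iota kinases, were singled out after their values were seen. Together they had 224.8, 148.9 and 211.4 FPKM in NPI and 470.1, 420.2 and 340.6 FPKM in DI, with no overlap between groups.

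Of these 4 genes, 3 had every NPI library below every DI library, where 13.7% of all tested genes did. Zm00001d039407, the most abundant, had 95.2, 53.7 and 100.2 FPKM in NPI and 223, 213 and 175 FPKM in DI (log2 difference -1.20, SE 0.37, edgeR adjusted p = 0.153, DESeq2 adjusted p = 0.0229). Zm00001d053548 had 14, 19 and 18.6 FPKM in NPI and 42.7, 31.9 and 34.5 FPKM in DI (log2 difference -1.02, SE 0.26, edgeR adjusted p = 0.114, DESeq2 adjusted p = 0.00865). In both, NPI-2 was low like the other NPI libraries, unlike in the receptor genes brassinosteroid insensitive1a and Zm00001d043634. Zm00001d008893 had 114.2, 64 and 87.4 FPKM in NPI and 187.2, 165.04 and 120.8 FPKM in DI (log2 difference -0.75, edgeR adjusted p = 0.269). The fourth, Zm00001d037010, overlapped through NPI-2 (log2 difference -0.97, edgeR adjusted p = 0.433). The gene described as the eta kinase, the isoform that is BIN2 itself in Arabidopsis, had 27.8, 22 and 25.9 FPKM in NPI and 22.3, 18.1 and 24 FPKM in DI (Zm00001d016188, log2 difference 0.30, edgeR adjusted p = 0.544). In the other direction, Zm00001d053206 had 8.84, 5.59 and 8.52 FPKM in NPI and 2.85, 4.96 and 4.16 FPKM in DI (log2 difference 1.03, edgeR adjusted p = 0.195).

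Other steps that touch the pathway were mixed, and edgeR called none of their genes. The 21 tested genes of sterol synthesis, which supplies the precursors, had 9 positive and 12 negative log2 differences with a median of -0.16. DESeq2 called 2 of them lower and 0 higher, beside 4.53% and 6.84% of all tested genes. Without NPI-2, edgeR called 2 lower, beside 5.19% of all tested genes, and these were not the genes that DESeq2 called. The list follows the KEGG term and so takes in lipases. DESeq2 called one of these, Zm00001d012687 (adjusted p = 0.0143), and sterol methyltransferase1 (Zm00001d019139, adjusted p = 0.0361), which acts early in sterol synthesis. The lipase gene Zm00001d012687 had 5.06, 4.94 and 4.54 FPKM in NPI and 13.95, 13 and 7.16 FPKM in DI, the smallest p among the lower genes of the list (log2 difference -1.16, edgeR adjusted p = 0.117). On the higher side it was the sterol reductase gene Zm00001d006889, with overlapping groups (log2 difference 0.58, edgeR adjusted p = 0.309).

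The 4 SERK genes, whose products serve as co-receptors beside BAK1, had log2 differences of -0.43 to 0.12, with edgeR adjusted p = 0.665 for the lowest (Zm00001d049480) and 0.847 for the highest (Zm00001d016928). Of the 3 BR-signaling kinases, which pass the signal on from the receptor, 2 were positive and 1 negative, from -0.59 (Zm00001d030021, edgeR adjusted p = 0.362) to 0.31 (Zm00001d047053, edgeR adjusted p = 0.53). Of 4 tested BSL phosphatases, relatives of the phosphatase that acts on BIN2, 1 was positive, Zm00001d010887 with 19.6, 10.9 and 12.3 FPKM in NPI and 9.85, 10.4 and 8.74 FPKM in DI (log2 difference 0.64, edgeR adjusted p = 0.278). The lowest was Zm00001d041307 (log2 difference -0.34, edgeR adjusted p = 0.54).

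The 14-3-3 proteins, which hold phosphorylated BZR factors in the cytoplasm, were divided, with 6 of 13 positive and a median of -0.02. Zm00001d036226 had 38.5, 29.1 and 26.8 FPKM in NPI and 11.3, 9.16 and 16.3 FPKM in DI. Zm00001d048868 had 6.68, 10.8 and 3 FPKM in NPI and 18.8, 18.5 and 17.2 FPKM in DI. These 2 genes had non-overlapping groups in opposite directions (log2 differences 1.42 and -1.40, edgeR adjusted p = 0.0969 and 0.134). DESeq2 called the first higher and the second lower (adjusted p = 0.00243 and 0.0178), beside 6.84% and 4.53% of all tested genes. So did edgeR without NPI-2 (adjusted p = 0.04 and 0.038), beside 6.65% and 5.19%. Of the 13, 1 had every NPI library above every DI library and 3 had the reverse, where 13% and 13.7% of all tested genes did.

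Among genes that respond to the hormone in other plants, the EXORDIUM family had 9 of 10 tested genes positive, with a median of 0.48. The list's median, as log2 CPM against the DI mean, was 1.14, -0.51 and 0.86 for NPI-1 to NPI-3. Zm00001d044864 had 4.19, 3.67 and 6.64 FPKM in NPI and 1.52, 0.64 and 0.83 FPKM in DI, without overlap (log2 difference 2.36, edgeR adjusted p = 0.108, DESeq2 adjusted p = 0.00189). Without NPI-2, edgeR called 2 genes of the family higher, this one among them (adjusted p = 0.0403), beside 6.65% of all tested genes. The only negative gene was Zm00001d018105 (log2 difference -0.87, edgeR adjusted p = 0.469). Of the small bHLH genes of the PRE type, 2 were tested, with overlapping groups. The log2 difference of Zm00001d052254 was 0.42 (edgeR adjusted p = 0.728), and that of Zm00001d027855 was 0.71 with all libraries (edgeR adjusted p = 0.799) and -1.36 without NPI-2, its highest library at 11.28 FPKM. A further P450 90A1 gene and a further CYP734A gene outside the KEGG term had overlapping groups as well. In the former, Zm00001d004957, the log2 difference was 0.71 (edgeR adjusted p = 0.747) and -0.85 without NPI-2, and in the latter, Zm00001d015721, it was 0.86 (edgeR adjusted p = 0.501) and -0.22 without NPI-3.

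Hemoglobin2 (Zm00001d038718, chromosome 6, 163324435 to 163325813), found by its letters alone, had 183.5, 35.4 and 197.4 FPKM in NPI and 33.2, 23.2 and 32.6 FPKM in DI. NPI-2 lay just above the DI range and the other NPI libraries far above it (log2 difference 2.35, SE 0.66, edgeR adjusted p = 0.134, DESeq2 adjusted p = 0.00454). Without NPI-2 edgeR called it higher, at 2.83 (adjusted p = 0.022). Counting it among the members would bring the DESeq2 calls to 8 higher.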

How the data were processed

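Messenger RNA of maize root tips was sequenced in 6 libraries, 3 per group. FastQC 0.10.1, HISAT2 2.0, StringTie 1.3.4 and edgeR are named in the submitters' processing notes. No genome build or strand setting is given in the sources used here; coordinates are those of the deposited table. The authors deposited estimated counts, which are whole numbers, and FPKM per gene and library. Overlapping genes and similar copies may share counts.

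The members and lists were chosen with earlier results of these data known. Differences come from edgeR 4.0.16 in R 4.3.3 (quasi-likelihood test, TMM factors, NPI minus DI, two-sided), adjusted by Benjamini-Hochberg over 21902 genes, those whose FPKM averaged 1 or more. SE was taken as the absolute log2 difference over the square root of F. Alternatives were other scaling factors, filters and moderation, DESeq2 1.42.0, limma 3.58.1 on log2(FPKM + 1) and log2(FPKM + 0.1), a replicate block, adjusted p of 0.1 and each library left out. Removal of a length trend and the unadjusted threshold were added after seeing the data. The share of inactivating genes in the summed FPKM and its permutation test were not planned beforehand either. Per-library list medians are differences from the DI mean in log2 CPM (prior count 1). Scripts were tested on simulated data. Named members were those of smallest p or highest FPKM in each role and the defining factors. The other tested members (Zm00001d028325, Zm00001d005823, Zm00001d053617, Zm00001d022351, Zm00001d039650 and both RING-H2 genes), hemoglobin2, the iota and eta kinases, Zm00001d040263, sterol methyltransferase1, Zm00001d027855, Zm00001d004957 and the root cap genes were named after their values were seen. Figures were drawn with matplotlib 3.10.9.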

Additional observations from a re-analysis of the deposited data

How the results depend on the processing

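Members called in edgeR numbered 0 with all libraries and stayed at 0 under RLE and upper quartile factors, no filter, filterByExpr, robust moderation, the newer quasi-likelihood estimate, limma with either pseudocount and the replicate block. DESeq2 called 7 members (4 of synthesis, 3 of signalling), an adjusted p of 0.1 gave 3 (1 and 2), and an unadjusted p under 0.05 gave 12 (7 and 5). With each library left out the count ran from 0 to 9, that of synthesis from 0 to 4 and that of signalling from 0 to 5, in each case highest without NPI-2. Of all tested genes called in edgeR there were 3, beside 2491 with DESeq2, 138 and 129 with limma on log2(FPKM + 1) and log2(FPKM + 0.1), 26 with the newer estimate, 18 without a filter, 16 with upper quartile factors, 623 at an adjusted p of 0.1, 1 with the replicate block, and 0 to 2593 with a library left out. The cause of these differences was not tested.

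In the labels, same-numbered libraries share only that number. Their deviations from the group means had correlations of -0.236, 0.169 and 0.162 across genes, and not every library agreed best with its own number. Deviations within a group of 3 libraries sum to 0, so these values cannot show whether libraries were paired. With the replicate block the medians were 1.21 for synthesis, 0.44 for signalling and -0.0012 for all tested genes. On log2(FPKM + 1), limma gave medians of 0.78 and 0.37 for synthesis and signalling, where 1.31 and 0.57 came from edgeR. The median log2 difference of all tested genes was 0.074, and 0.059 with filterByExpr, -0.0386 and -0.0619 with limma at a pseudocount of 1 and 0.1, 0 with the length trend removed, and 0.0319 to 0.074 with a library left out. With the length trend removed, synthesis and signalling had 1.29 and 0.46.

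Of 816 comparisons of 51 of the named genes with an alternative, 774 kept direction and side of the threshold, 26 came to pass it and 16 changed direction, in 9 genes. The 51 do not include Zm00001d027855 and Zm00001d004957, which also changed direction, to -1.36 and -0.85 without NPI-2. The log2 difference of brassinosteroid insensitive1a (Zm00001d011721) went from 0.19 to -0.66 and -0.50 with limma at a pseudocount of 0.1 and 1, to -0.66 with the replicate block, and from -1.60 to 0.67 with a library left out. The log2 difference of Zm00001d020725 went from 0.60 to -0.16 with limma at 0.1, to -0.0422 with the block, and from -0.40 to 1.14 with a library left out. With a library left out, the ranges were -0.75 to 0.23 for nana plant2 (Zm00001d014887), -0.23 to 0.59 for nana plant1 (Zm00001d042843), -0.29 to 0.91 for Zm00001d052475, -0.61 to 0.85 for Zm00001d043634, -0.22 to 0.0419 for Zm00001d050132, -0.034 to 0.36 for Zm00001d016928 and -0.22 to 1.29 for Zm00001d015721. Without NPI-3 the log2 difference of Zm00001d019983 was 0.57 where it was 1.1 with all libraries, that of Zm00001d046305 was 0.28 where it was 0.65, and those of the RING-H2 genes Zm00001d017612 and Zm00001d045568 were 0.38 and 0.54 where they were 0.97 and 1.28. Without NPI-1, that of Zm00001d028325 was 0.86 where it was 1.29, and that of Zm00001d039439 was 0.25 where it was 0.53.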
